A study of Mus musculus with 17 samples.

Results

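The 9 genes described here encode proteins of blood coagulation and fibrinolysis: F3, F7, F10, F13a1, Thbd, Procr, Plau, Plaur and Serpinb2. They were taken by symbol from a table of 21683 gene entries, each symbol matched 1 entry, and all 9 passed the filter for testing (at least 1 TPM in at least 5 libraries). TPM is an estimate of transcript abundance corrected for transcript length and library size.

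RNA-Seq was performed on cultured peritoneal macrophages (PMs) of male C57BL/6 mice, collected after a thioglycollate injection, at 8 weeks of age per the sample labels. All mice carried loxP-flanked alleles of the gene for IKKβ, the kinase that activates canonical NF-κB. The F/F PBS group (6 libraries) held IKKβF/F PMs given PBS for 12 h, and the F/F Tat group (6 libraries) held PMs of the same genotype given the HIV protein Tat at 100 nM for 12 h. The ΔMye Tat group (5 libraries) held Tat-treated PMs of IKKβΔMye mice, which also carry a heterozygous LysM-Cre knock-in that deletes IKKβ in myeloid cells. Tat was a recombinant first-exon form made in bacteria as a fusion protein, freed with the protease thrombin and depleted of endotoxin. The control cells were given PBS, so Tat and what else its preparation held cannot be told apart in these libraries. PBS-treated IKKβΔMye cells are not analysed here. Whether the response to Tat itself differed between the genotypes could therefore not be tested, and the 3 comparisons share libraries with each other. The study describes its libraries as biological replicates of mice, and the labels name no animals.

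Coagulation starts when tissue factor, the product of F3, meets factor VII, and this complex activates factor X, which in turn generates thrombin. Thrombomodulin (Thbd) and the endothelial protein C receptor (Procr) turn thrombin towards activation of protein C, an anticoagulant, and factor XIII-A (F13a1) cross-links the fibrin formed. Urokinase (Plau), bound to its receptor (Plaur), converts plasminogen to plasmin, which dissolves fibrin, and PAI-2 (Serpinb2) inhibits urokinase. Macrophages are a known source of tissue factor, factor XIII-A and urokinase.

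With Tat, F3, F10, Procr, Plaur and Serpinb2 rose in F/F PMs, and Thbd, F13a1, Plau and F7 were lower. The rises ran from 3.45-fold for Plaur to 13.5-fold for F3, and the largest decrease was that of Thbd, from a mean of 14.5 to 0.219 TPM. At an adjusted p under 0.01 (limma), 5 of the 9 genes were called higher, against 1774 (17%) of the 10451 genes tested, and 4 were called lower, against 67.6%. With a fold change over 3 required as well, 5 were higher (5.21% of all genes) and 2 were lower, Thbd and F13a1 (19.4%). Thbd passed the low-value filter through F/F PBS alone, so it could enter these counts only as a lower gene. It is in each count of lower genes with Tat, also after the scaling described below. The F/F Tat and F/F PBS libraries did not overlap for any of the 9 genes, as for 77.6% of all genes tested. The median log2 difference was 1.79 over the 9 genes and -0.65 over all genes tested. In bulk RNA, fewer cells of a type and less RNA per cell cannot be told apart.

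The median of all genes was therefore shifted, and each difference was also computed after libraries were scaled to a common median ratio, which brings the median of all genes to -0.026. On that scale 5 of the 9 genes were higher (37.3% of all genes) and 3 were lower (3967 genes, 38%). F7 was the gene that lost its call, and Plau kept it with a smaller difference. Changes of F7 and Plau are therefore given on both scales.

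**Figure D1:**
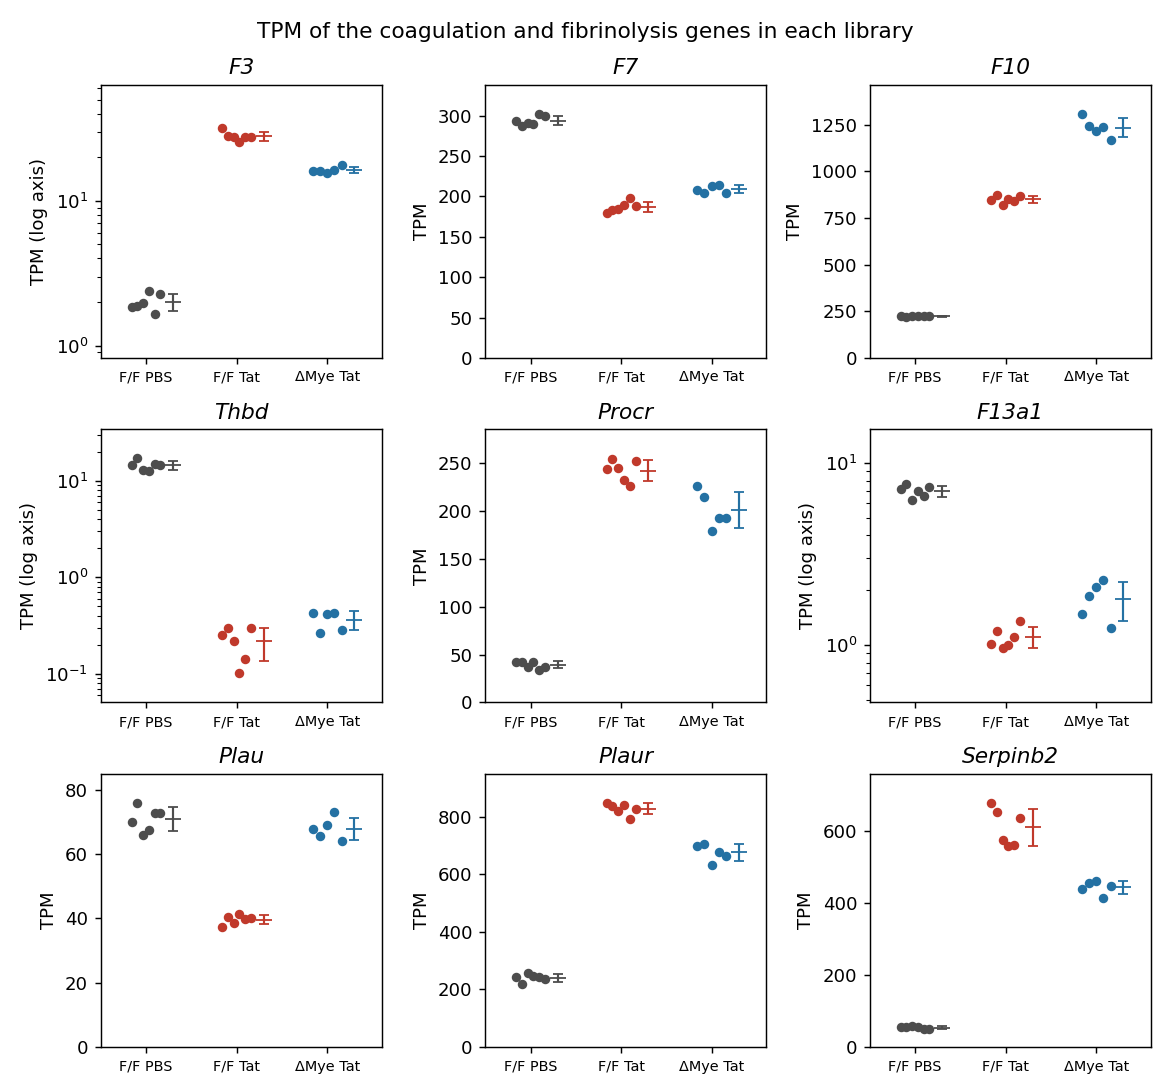
TPM of the 9 genes in each library (points, 1 panel a gene, log axis for F3, Thbd and F13a1 and linear from 0 for the others), by group, with the mean and SD beside the points. F/F Tat lies above F/F PBS for F3, F10, Procr, Plaur and Serpinb2 and below it for Thbd, F13a1, Plau and F7, and in Plau the ΔMye Tat values (63.9 to 73.0) overlap those of F/F PBS (65.8 to 75.8).

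Promoter sequences were looked up for the 9 genes in RefSeq (GRCm38.p6), and 7 had an entry. Thbd and Plau had none. The windows of 250 bases before the annotated start were searched on both strands for 10 short motifs, and the letters TGANTCA, which AP-1 factors (dimers of Fos and Jun proteins) bind, were in the windows of 4 of the 7 genes: F3, Procr, Plaur and Serpinb2. They were in 6.75% of the 32851 windows of this length in the table. They were not in the windows of F10, F7 or F13a1. Here and below, the shares of all windows count windows, while a member was counted if any of its windows matched. The 7 genes had 9 windows. A window with these letters from each of the 4 genes is shown with that of F10, the gene that rose without them, so that they can be read side by side. Capitals mark TGANTCA and, in F3, also GGANTTTCC, letters close to an NF-κB site. Coordinates are of the plus strand, on which all 5 genes lie.
F3, chr3:121723287-121723536: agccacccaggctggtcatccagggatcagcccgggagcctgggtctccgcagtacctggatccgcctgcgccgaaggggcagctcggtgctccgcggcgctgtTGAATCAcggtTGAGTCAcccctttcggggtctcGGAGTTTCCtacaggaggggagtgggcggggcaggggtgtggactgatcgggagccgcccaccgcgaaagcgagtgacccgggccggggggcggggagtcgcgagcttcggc
Procr, chr2:155750967-155751116: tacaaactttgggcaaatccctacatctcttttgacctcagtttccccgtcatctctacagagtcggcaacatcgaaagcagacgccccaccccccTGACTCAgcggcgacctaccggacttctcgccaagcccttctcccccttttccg
Plaur, chr7:24462233-24462482: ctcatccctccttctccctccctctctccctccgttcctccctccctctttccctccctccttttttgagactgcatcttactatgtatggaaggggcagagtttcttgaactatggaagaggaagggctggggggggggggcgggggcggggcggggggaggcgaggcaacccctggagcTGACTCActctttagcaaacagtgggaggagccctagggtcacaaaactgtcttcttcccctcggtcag
Serpinb2, chr1:107511173-107511422: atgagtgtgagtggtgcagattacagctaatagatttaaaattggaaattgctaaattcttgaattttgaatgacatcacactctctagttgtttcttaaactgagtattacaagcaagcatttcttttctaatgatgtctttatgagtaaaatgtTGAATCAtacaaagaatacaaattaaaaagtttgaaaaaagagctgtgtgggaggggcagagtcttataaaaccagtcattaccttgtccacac
F10, chr8:13037058-13037307: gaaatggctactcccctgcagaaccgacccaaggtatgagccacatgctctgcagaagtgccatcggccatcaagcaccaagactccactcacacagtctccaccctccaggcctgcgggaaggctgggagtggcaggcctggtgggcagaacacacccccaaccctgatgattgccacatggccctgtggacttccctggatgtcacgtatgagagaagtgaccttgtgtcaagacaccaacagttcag

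F3 had 2 matches to TGANTCA, at 146 to 140 and at 135 to 129 bases before its start, and 0.338% of all windows had at least 2. The match lay 94 to 88 bases before the start in Serpinb2, or 181 to 175 before a second start, and 69 to 63 in Plaur. In Procr it lay 154 to 148 bases before the RefSeq start. The Procr stretch shown ends earlier than that start, since it is the part of the window, 150 bases long, that lies before the start of the gene in the GENCODE annotation. A stricter form of an NF-κB site, GGGA followed after any 2 bases by TTCC, was in none of the members' windows and in 1.21% of all windows. The looser GGANTTTCC was added to the search after the sequences had been read, was in 1.07% of all windows, and among the members was in F3, 112 to 104 bases before the start, and in the window of a second start of F13a1. Of the other motifs searched, CCACCC (28.1% of all windows) was in 5 of the 7 genes, TTNNGCAA (9.56%) and GAGGAA (23.3%) in 3 each, GGGCGG (32.7%) in 2 and TATAAA (12.4%) in Serpinb2 alone, while GAAA repeated after any 2 bases (2.98%) and CACGTG (6.02%) were in none. These matches describe letters in a window, and binding was not measured.

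F3 (tissue factor, chromosome 3, 121723537 to 121735048, plus strand, GRCm38) was low in F/F PBS, from 1.64 through a median of 1.92 to 2.39 TPM. In F/F Tat it ran from 25.7 through 27.8 to 31.7 TPM, and the ΔMye Tat libraries were at 16.1, 16.1, 15.7, 16.2 and 17.7 TPM. The 3 groups did not overlap, with ΔMye Tat between the others. The mean rose from 2.0 ± 0.280 (SD, n = 6) to 28.1 ± 1.97 TPM (SD, n = 6) with Tat, a log2 difference of 3.75 (SE 0.08, adjusted p = 3.07e-19, limma) that ranked 110 from the highest of 10451 genes. In ΔMye Tat the mean was 16.3 ± 0.778 TPM (SD, n = 5), lower than F/F Tat by a log2 difference of -0.77 (SE 0.08, adjusted p = 2.31e-07). It was still higher than F/F PBS, by 2.98 on the log2 scale.

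F7 and F10, neighbours on chromosome 8 with 1498 bases between the end of F7 and the start of F10, moved differently. F7 (13026034 to 13035809, plus strand), the circulating partner of tissue factor, ran from 287 through 292 to 302.0 TPM in F/F PBS and from 180.0 through 186 to 198 TPM in F/F Tat. In ΔMye Tat it was at 208, 205, 213, 215 and 204 TPM, above every F/F Tat and below every F/F PBS library. The log2 difference with Tat was -0.65 (SE 0.03, adjusted p = 8.22e-15), the same to 2 decimals as the median of all genes, and after median-ratio scaling it was -0.015 (adjusted p = 0.697). The difference of 0.16 between ΔMye Tat and F/F Tat (SE 0.03, adjusted p = 6.68e-05) turned to -0.063 on that scale (adjusted p = 0.158), so no direction is given for F7 in that comparison.

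F10 (13037308 to 13056676, plus strand), whose product is the protease that generates thrombin, rose in every Tat library. It ran from 219 through 225 to 227 TPM in F/F PBS and from 821 through 848.5 to 873 TPM in F/F Tat. The ΔMye Tat libraries were at 1306, 1244, 1217, 1236 and 1167 TPM, all above F/F Tat. Tat raised F10 by 1.92 on the log2 scale (SE 0.03, adjusted p = 1.64e-22), or 3.79-fold, and ΔMye Tat was higher than F/F Tat by 0.54 (SE 0.03, adjusted p = 4.00e-12). The second difference was 0.32 after scaling (adjusted p = 6.49e-08), so F10 was higher on both scales. Of the 5 genes that rose with Tat, F10 was the one with a higher level in ΔMye Tat than in F/F Tat, and 5.50-fold that of F/F PBS. Of the 31-base sequences of F10 transcripts, 4.40% also occur in other genes.

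F13a1 (chromosome 13, 36867178 to 37050244, minus strand), which encodes the cross-linking A subunit of factor XIII, was at 7.02 ± 0.501 TPM in F/F PBS (SD, n = 6) and at 1.11 ± 0.146 TPM in F/F Tat (SD, n = 6). In ΔMye Tat it was at 1.47, 1.87, 2.09, 2.28 and 1.24 TPM, partly within the F/F Tat range. It fell by 2.57 on the log2 scale with Tat (SE 0.13, adjusted p = 4.25e-13). It was higher in ΔMye Tat than in F/F Tat by 0.63 (SE 0.14, adjusted p = 7.28e-04), but by 0.42 after scaling (adjusted p = 0.0130), past the threshold on the first scale alone. A pair of antisense genes overlaps F13a1 and is not in the table under their names. Of the 31-base sequences of F13a1 transcripts, 1.19% also occur in other genes on either strand, Gm30489 of that pair among them. Reads from such shared stretches cannot be told apart by sequence alone, and whether the counting used strand is not given in the sources used here.

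Thbd (thrombomodulin, chromosome 2, 148404466 to 148408188, minus strand), the thrombin receptor, ran from 12.8 through 14.6 to 17 TPM in F/F PBS. The F/F Tat libraries ran from 0.101 through 0.236 to 0.300 TPM, and the ΔMye Tat libraries were at 0.428, 0.267, 0.412, 0.428 and 0.287 TPM. Every Tat library of either genotype was far below every PBS library, and Thbd passed the low-value filter through F/F PBS alone. It could therefore enter the main test only by being higher in F/F PBS than in the Tat groups. Its adjusted p and rank against F/F PBS are given as description. The mean fell by 5.55 on the log2 scale (SE 0.18, adjusted p = 2.04e-16), the fourth lowest of 10451 genes, and by 3.67 with a pseudocount of 1 in place of 0.1. ΔMye Tat and F/F Tat overlapped, and their difference of 0.57 (SE 0.18, 95% interval 0.18 to 0.96, adjusted p = 0.0125) was not called. It was called when F/F Tat library 8 (0.64, adjusted p = 0.00728) or 12 (0.64, 0.00685) or ΔMye Tat library 20 (0.65, 0.00812) or 23 (0.63, 0.00946) was left out, and these levels lie under 1 TPM.

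Procr (chromosome 2, 155751117 to 155755471, plus strand), the receptor that presents protein C to the thrombin-thrombomodulin complex, moved the other way. It ran from 34.0 through 39.8 to 42.7 TPM in F/F PBS and from 226 through 244 to 255 TPM in F/F Tat. The ΔMye Tat libraries were at 227, 215, 179, 192 and 193 TPM, 1 of them within the F/F Tat range. Tat raised it by 2.62 on the log2 scale (SE 0.06, adjusted p = 1.60e-18), or 6.16-fold. ΔMye Tat was lower than F/F Tat by a difference of -0.27 (SE 0.06, adjusted p = 0.00133), or -0.49 after scaling.

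Plau (urokinase, chromosome 14, 20836660 to 20843385, plus strand) had a pattern apart from the other 8 genes. It ran from 65.8 through 71.3 to 75.8 TPM in F/F PBS and from 37.2 through 40.0 to 41.4 TPM in F/F Tat. In ΔMye Tat it was at 67.8, 65.5, 68.9, 73.0 and 63.9 TPM, above every F/F Tat library and within or near the F/F PBS range. Tat lowered it by a log2 difference of -0.83 (SE 0.04, adjusted p = 2.95e-13), or -0.20 after scaling (adjusted p = 1.52e-04). ΔMye Tat was higher than F/F Tat by 0.77 (SE 0.04, adjusted p = 3.41e-11), or 0.55 after scaling. Between ΔMye Tat and F/F PBS the difference was -0.061 (95% interval -0.15 to 0.030, adjusted p = 0.199), but 0.35 after scaling (adjusted p = 3.68e-07), so that comparison has no direction that holds on both scales.

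Plaur, the urokinase receptor (chromosome 7, 24462484 to 24475968, plus strand), was already abundant in F/F PBS, at 217 to 258 TPM with a median of 241. It ran from 794 through 831 to 847 TPM in F/F Tat, and ΔMye Tat was at 697, 706, 632, 679 and 664 TPM, between the other groups without overlap. Tat raised it by 1.79 on the log2 scale (SE 0.04, adjusted p = 1.18e-19), and it was lower in ΔMye Tat than in F/F Tat by a difference of -0.29 (SE 0.04, adjusted p = 1.96e-06). After scaling that difference was -0.51.

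Serpinb2, the urokinase inhibitor PAI-2 (chromosome 1, 107511423 to 107535478, plus strand), ran from 49.2 through 54.7 to 56.9 TPM in F/F PBS and from 557 through 605.5 to 676.5 TPM in F/F Tat. The ΔMye Tat libraries, at 438, 455, 462, 413 and 445 TPM, lay between the other groups without overlap. Tat raised it by 3.51 on the log2 scale (SE 0.05, adjusted p = 1.17e-21), or 11.4-fold. It was lower in ΔMye Tat than in F/F Tat, by a difference of -0.46 (SE 0.05, adjusted p = 8.68e-07) or -0.68 after scaling. Of its 31-base sequences, 11.2% also occur in Serpinb10, an overlapping gene that is not in the table under that name, so reads could be split between them.

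Between ΔMye Tat and F/F Tat, 4 of the 9 genes were called higher on the deposited values (F10, Plau, F13a1 and F7, of which F13a1 lost its call and F7 its direction after scaling) against 38.8% of all genes tested, and 4 were called lower (F3, Procr, Plaur and Serpinb2) against 8.87%. None of these differences reached a fold change of 3, which 0.440% of all genes did as higher and 0.316% as lower. After scaling, the counts were 2 higher (F10 and Plau, 15.9% of all genes) and 4 lower (19.4%). The groups did not overlap in 6 of the 9 genes, against 36.6% of all genes. The median log2 difference of the 9 genes was 0.16, or -0.063 after scaling, beside 0.22 and 0.0064 for all genes tested. Against F/F PBS, where genotype and treatment both differ, 5 genes were higher in ΔMye Tat (17.5% of all genes) and 3 were lower (58.8%), and Plau was not called. With a fold change over 3 these were 4 (4.38%) and 2 (11.1%), and after scaling 6 (33.8%) and 2 (33.9%). Thbd, which passed the low-value filter through F/F PBS alone, is in each of these counts of lower genes. The groups did not overlap in 8 of the 9 genes (67.7% of all genes).

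**Figure D2:**
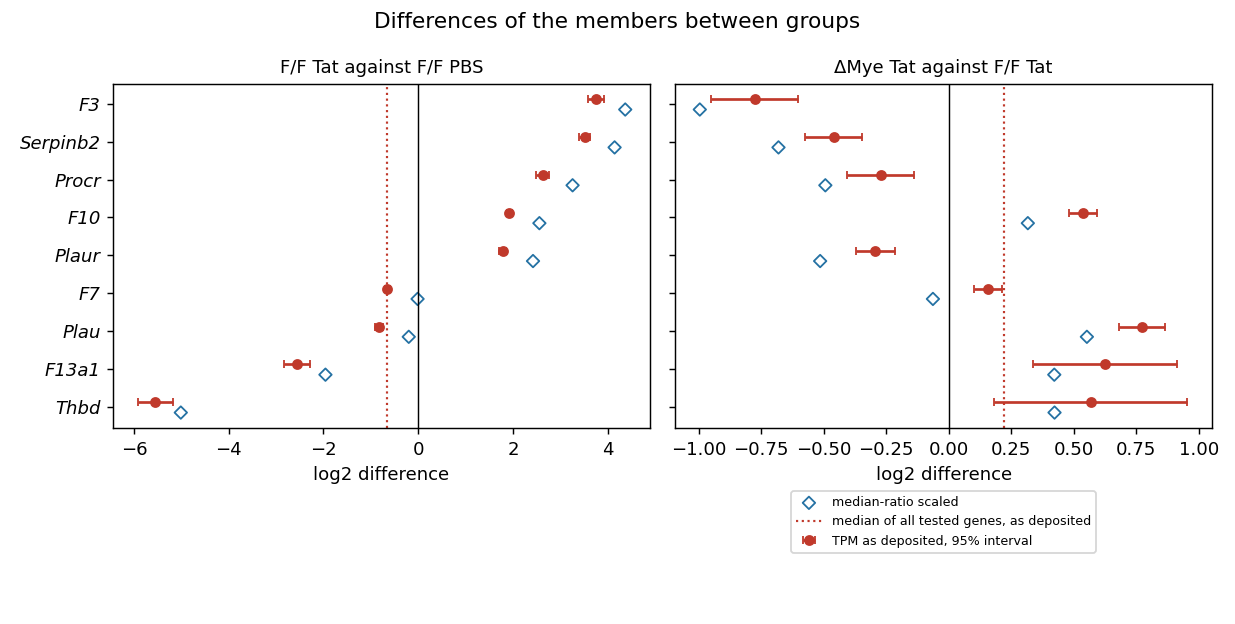
Log2 differences of the 9 genes with Tat (left) and between the Tat groups (right), on the deposited TPM (filled points, 95% intervals from limma) and after median-ratio scaling (open diamonds), with the median of all genes tested as a dotted line. With Tat, F3 (3.75) and Thbd (-5.55) lie farthest to either side, and between ΔMye Tat and F/F Tat F3 (-0.77) and Plau (0.77) do.

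A ratio of 2 genes within a library does not depend on scaling between libraries. F3 over Thbd ran from 0.109 through a median of 0.139 to 0.187 in F/F PBS, from 91.7 through 126 to 254 in F/F Tat and from 37.6 through 38 to 61.6 in ΔMye Tat. Procr over Thbd, the 2 receptors of the protein C pathway, had medians of 2.71, 1039 and 529.5 in that order. Both ratios divide by Thbd levels that were under 1 TPM with Tat, so their size rests on small values.

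Serpinb2 over Plau, the inhibitor against its target, ran from 0.674 through 0.757 to 0.865 in F/F PBS, from 13.5 through 15.4 to 18.2 in F/F Tat and from 5.65 through 6.70 to 6.97 in ΔMye Tat. Plaur over Plau had medians of 3.39, 20.6 and 10.3. F10 over F7 ran from 0.745 through 0.763 to 0.780 in F/F PBS, from 4.25 through 4.55 to 4.75 in F/F Tat and from 5.71 through 5.76 to 6.29 in ΔMye Tat. In all 5 ratios the 3 groups did not overlap. F10 over F7 was highest in ΔMye Tat, and the other 4 were highest in F/F Tat. The pairs were chosen with earlier results of these data known, so no test is given.

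**Figure D3:**
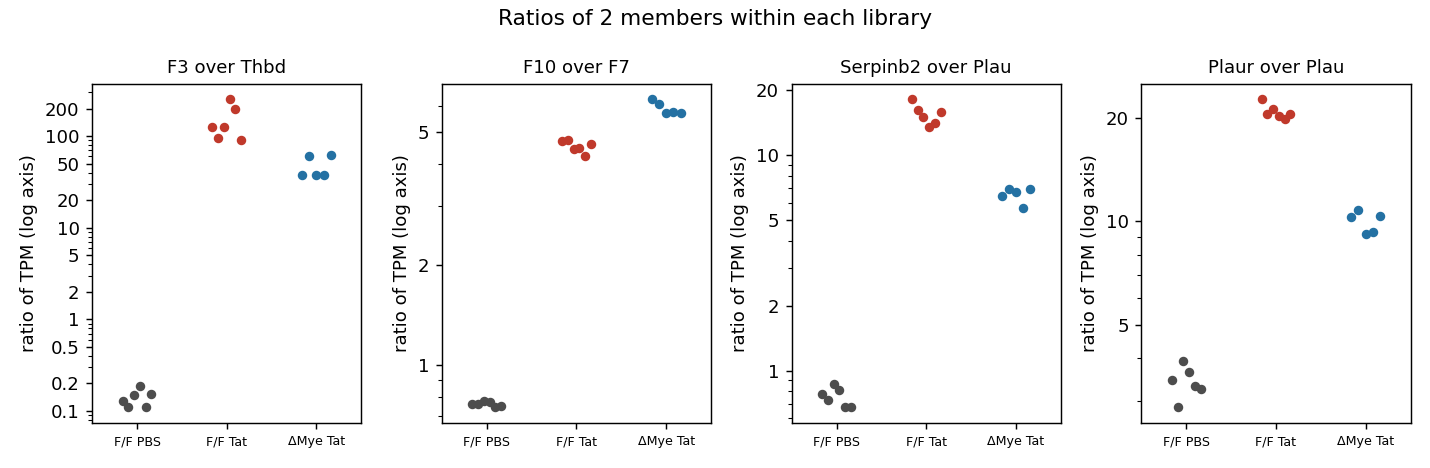
Ratio of TPM of 2 genes within each library (points, log axis), for F3 over Thbd, F10 over F7, Serpinb2 over Plau and Plaur over Plau. The groups do not overlap in any panel, and ΔMye Tat lies between the other groups except in F10 over F7, where it is highest (5.71 to 6.29).

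Of 41 other genes of coagulation, its inhibitors, fibrinolysis, protease-activated receptors and the vitamin K cycle that are reported here, 15 were tested. With Tat, 14 were lower and 0 were higher at an adjusted p under 0.01 (limma), beside the background of 67.6% and 17%. Proz, among those lower, passed the low-value filter through F/F PBS alone (no Tat library above 0.717 TPM). It could therefore enter the test only by being higher in F/F PBS than in the Tat groups. Plat, tissue plasminogen activator, was higher at an unadjusted p under 0.05 (log2 difference 0.47, adjusted p = 0.0539). After scaling, 3 were higher (Plat, Anxa2 and Lman1) and 10 were lower, beside 37.3% and 38% of all genes tested.

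Among the inhibitors and cofactors, Tfpi, the inhibitor of the tissue factor complex, was 14.4 TPM in F/F PBS and 5.68 TPM in F/F Tat (log2 difference -1.33, adjusted p = 2.44e-11). Pros1, the protein C cofactor protein S, was 14.6 and 8.46 TPM (-0.78), or -0.15 after scaling, where it was not called. Proz was 1.52 and 0.328 TPM, and Vwf, the platelet adhesion protein von Willebrand factor, was 20 and 7.21 TPM. F5, the cofactor of factor X, fell from 6.06 to 2.32 TPM with Tat and was 1.45 TPM in ΔMye PMs (-1.34 with Tat and -0.66 between the Tat groups, adjusted p = 3.23e-04).

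The cell-surface plasminogen receptor genes Plgrkt, S100a10 and Anxa2 were abundant. Plgrkt was 78.6, 35.6 and 46.7 TPM in F/F PBS, F/F Tat and ΔMye Tat, S100a10 was 601, 337 and 383 TPM, and Anxa2 was 703.6, 649 and 861.5 TPM. The small decrease of Anxa2 with Tat (-0.12) became 0.52 after scaling. Lrp1, the scavenger receptor that clears protease-inhibitor complexes, was 99.0, 30.3 and 43.0 TPM. In the vitamin K cycle, which prepares factors VII and X for membrane binding, Vkorc1 was 41.5, 14.2 and 21.3 TPM and Vkorc1l1 was 20.1, 11.8 and 13 TPM. The secretion genes Mcfd2 and Lman1 were at 279.8, 102 and 124 TPM and at 43.2, 34.7 and 35.8 TPM. After scaling, Vkorc1l1 was not called with Tat (log2 difference -0.12, adjusted p = 0.318, limma) and Lman1 was higher (0.32). Vkorc1 (-0.91) and Mcfd2 (-0.82) stayed lower on that scale.

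Between ΔMye Tat and F/F Tat, 6 of the 15 genes were higher (38.8% of all genes tested) and 2 were lower (8.87%), F5 and Plat. Plat was near 1 TPM and is named after its values were seen. No ΔMye Tat library of Plat was above 0.738 TPM, so it passed the low-value filter through F/F libraries alone. That filter favoured a call of Plat as lower in ΔMye Tat. After scaling the counts were 3 and 2, beside 15.9% and 19.4% of all genes. Against F/F PBS, 1 was higher in ΔMye Tat, Anxa2, and 13 were lower, beside 17.5% and 58.8% of all genes. The protease-activated receptors were all under the filter, with no library above 0.895 TPM. The liver-made factors thrombin (F2), fibrinogen (Fga, Fgb, Fgg), plasminogen (Plg) and protein C (Proc) did not exceed 0.0360 TPM in any library.

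**Figure D4:**
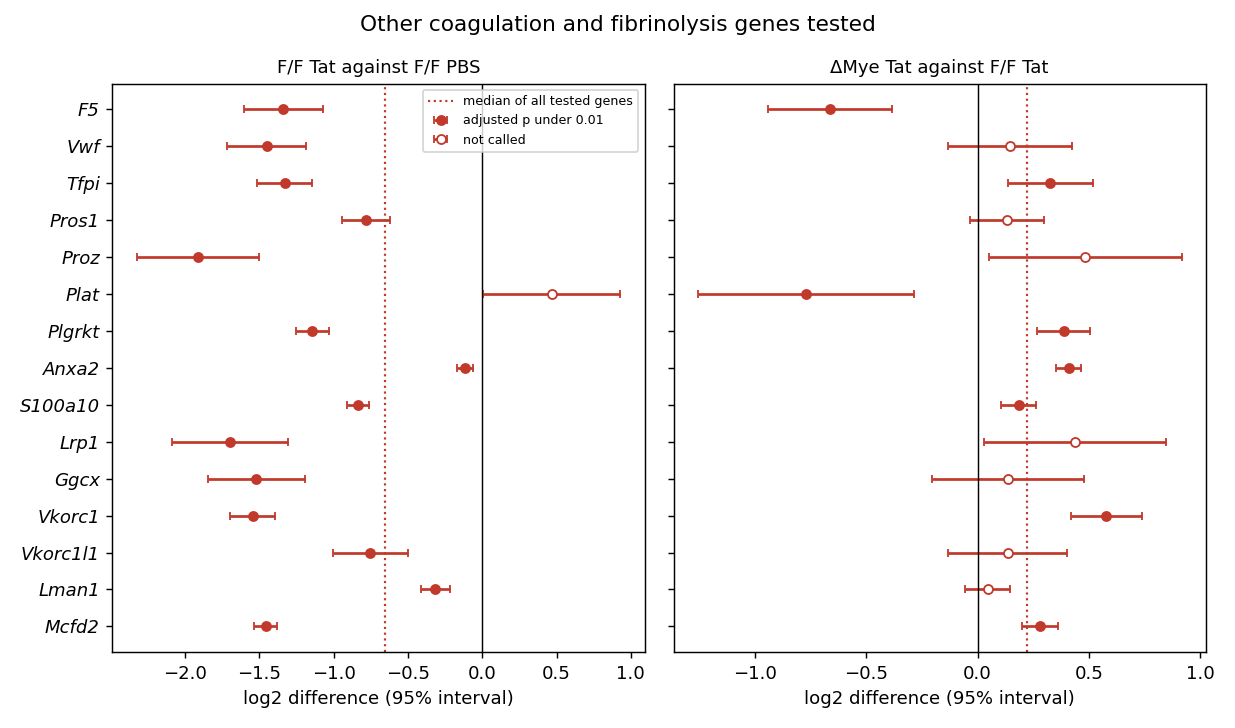
Log2 differences with 95% intervals (limma) of the 15 tested genes among the 41 other genes of coagulation and fibrinolysis, with Tat (left, F/F PMs) and between the Tat groups (right), filled where the adjusted p was under 0.01, with the median of all genes tested as a dotted line. With Tat all but Plat (0.47) lie below 0, and F5 (-0.66) and Plat (-0.77) are the genes lower in ΔMye Tat than in F/F Tat.

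The patterns of the 9 genes across all 17 libraries were set beside those of 8286 genes by Pearson correlation of log2(TPM + 0.1). The libraries fall into 3 groups that differ in treatment and genotype, so r mainly reflects group levels and is given as a description. For F3 the highest r was with Ccl2, Cxcl10 and Isg15, and 628 genes had r over 0.95. For Serpinb2 it was with Ccl3, Ifi211 and Ms4a6d (651 genes), for Plaur with Fabp3, Nfkbib and Isg15 (637) and for Procr with Igtp, Hcar2 and Aqp9 (645). For F10 it was with Mefv, H2-Q7 and H2-M2 (388 genes), which like F10 were highest in ΔMye Tat. For Thbd it was with Prcp, Daglb and H1f2 (1742), for F7 with Cd300a, Antxr2 and Lgmn (2134) and for F13a1 with Papss1, Vav2 and Sptssa (1870). Plau had the fewest, 65 genes, led by Nr1h3, Adam17 and Mfge8 (r of 0.987, 0.984 and 0.984), and all 3 had means in ΔMye Tat near those in F/F PBS.

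The libraries were checked against markers. Ikbkb, the deleted gene, ran from 24.5 to 30.1 TPM in F/F PBS, from 21.6 to 25.4 in F/F Tat and from 12.8 to 19.9 in ΔMye Tat (ΔMye Tat against F/F Tat -0.51, adjusted p = 4.51e-05). The 6 macrophage markers were all tested and summed to 3617 to 3988, 2578 to 2827 and 2706 to 2852 TPM in F/F PBS, F/F Tat and ΔMye Tat. Most of that sum was Cd68 (2596, 1744 and 1886 TPM), and members moved apart. Csf1r was 381, 64.0 and 104 TPM and Itgam 178, 106 and 116 TPM. Adgre1 was 499, 441 and 512 TPM, Fcgr1 113, 300.1 and 164 TPM and Mertk 15.4, 20.1 and 24.3 TPM. The 4 markers of large peritoneal macrophages summed to 99.4 to 110, 86.0 to 100.1 and 61.6 to 67.3 TPM, most of it Fcna, while Timd4 was 12.7, 21.7 and 7.09 TPM and Gata6 1.55, 0.282 and 0.475 TPM. The neutrophil list summed to 50.8 to 60.3, 62.9 to 76.2 and 86.2 to 102 TPM, nearly all of it S100a8 (53.8, 68.6 and 91.4 TPM), while S100a9 was 1.15, 0.842 and 0.716 TPM and Elane was listed at 0 in every library. The endothelial list summed to 4.85 to 6.33, 8.71 to 13.1 and 4.47 to 8.87 TPM, and the fibroblast list to 22.3 to 28.7, 24.1 to 28.3 and 13.4 to 17.8 TPM. Mast cell and eosinophil markers summed to 15.8 to 34.5 TPM, T, B and NK cell markers to no more than 11.6, mesothelial markers to no more than 4.75 and platelet markers to no more than 0.888 TPM. Of the 5 hepatocyte markers 4 were listed at 0 in every library. The endothelial sum was higher with Tat in F/F PMs without overlap, through Kdr (4.46 to 7.54 TPM) and Cdh5 (0.193 to 2.40 TPM), while Pecam1 was not called (adjusted p = 0.0638), Tie1 and Egfl7 were near 0 and Emcn was listed at 0 in every library. In ΔMye Tat the fibroblast sum was below F/F Tat without overlap and the endothelial sum overlapped it, and both sums stayed small beside the macrophage sum. F3 and Procr are also expressed by such cells, whose part in these results was not tested.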

How the data were processed

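RNA-Seq was analysed in 17 libraries (6 F/F PBS, 6 F/F Tat and 5 ΔMye Tat), grouped by their sample labels. The authors quantified reads with Salmon against the Ensembl annotation of GRCm38 (mm10 in the submitters' notes) and deposited TPM values by symbol. Their methods give TMM scaling of read counts for their own comparison, and no scaling of the TPM values. The listed TPM summed to 889318 to 903576 a library. TPM keep no read counts, so depth and counting error are unknown. The labels give 3 days between thioglycollate and collection. The study's methods give a different interval.

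The 10451 of 21683 entries that reached 1 TPM in 5 or more libraries were tested by limma 3.58.1 (R 4.3.3) on log2(TPM + 0.1), with eBayes using a trend, in 1 fit of the 3 groups with 14 residual degrees of freedom. Adjusted p is Benjamini-Hochberg over all genes tested. Fold changes are on this scale, which understates those of low genes. The main design of the study used edgeR on counts, and TPM do not allow that test. Scripts were tested on simulated data.

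The 9 genes and all lists were chosen with earlier results of these data known, and some items of the labels and of the pathway lists are not reported here. Other pathway genes were named if any group averaged 10 TPM or more, or for an adjusted p under 0.01 with a fold change over 3. Genes like each member were the 3 with the highest r among tested genes averaging 5 TPM or more in their highest group. Marker lists are those named in the text. Alternatives were median-ratio scaling, quantile normalization, other pseudocounts and filters, a fold threshold, and leaving out each library. Gene positions are from GENCODE M21. Python 3.11.15, numpy 2.4.6, pandas 2.3.3 and matplotlib 3.10.9 were used for descriptions and plots.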

Additional observations from a re-analysis of the deposited data

Results flagged for a closer look

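Each of the 9 genes in each of the 3 groups (27 in all) was checked for a library far from the others of its group. F10 in F/F PBS library 2, at 219 TPM, lay below the other libraries of that group by more than Dixon's limit at the 95% level. It is still close to the group mean of 224 TPM, and chance flags about 1 in 20 such groups.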

How the results depend on the processing

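The calls of F3, F10, Procr, Plaur, Serpinb2, Thbd and F13a1 with Tat kept their direction and their side of the threshold under every alternative run. Plau with Tat kept its direction and an adjusted p under 0.01 (limma) throughout but did not reach a fold change of 3. F7 with Tat lost its call under median-ratio scaling. Leaving out each library in turn gave 5 genes higher and 4 lower with Tat, 4 to 5 higher and 4 lower in ΔMye Tat against F/F Tat, and 5 higher and 3 lower against F/F PBS. With a fold change over 3, the count lower with Tat was 2, and in ΔMye Tat against F/F Tat it was 0 higher and 0 lower, since a difference of 3-fold is asked. Median-ratio scaling gave 2 higher in ΔMye Tat against F/F Tat, and among the other pathway genes 3 higher with Tat and 3 higher in ΔMye Tat against F/F Tat. Directions turned under that scaling for F7 (-0.063) and for Ggcx (-0.066), Lman1 (-0.17), Pros1 (-0.086), S100a10 (-0.036), Vkorc1l1 (-0.085) and Vwf (-0.073) in ΔMye Tat against F/F Tat, for Anxa2 (0.52) and Lman1 (0.32) with Tat, and for Plau (0.35), Lman1 (0.14) and Plat (0.056) in ΔMye Tat against F/F PBS. Quantile normalization turned Plau in the last comparison (0.029). Median-ratio scaling multiplies every gene of a library by the same factor, and quantile normalization does not. F13a1 in ΔMye Tat against F/F Tat lost its call under scaling and under quantile normalization (0.33, adjusted p = 0.0497, limma). TPM near or under 1, as of Thbd with Tat and of Plat, limit what can be said of small differences. No paired analysis was possible because the labels name no animals. The replicate numbers are serial library numbers across the groups, so whether libraries of different groups came from the same mice is unknown.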
